A study of Mus musculus with 12 samples.

Results

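The genes described here are 9 genes of salt, potassium and magnesium transport in the thick ascending limb and the distal convoluted tubule of the kidney: Umod, Slc12a1, Kcnj1, Slc12a3, Pvalb, Trpm6, Kcnj10, Wnk1 and Wnk4. They were chosen by name, and each matched 1 row of the 56748 genes in the deposited table of FPKM (fragments scaled to the length of the gene model and to library size). The RNA came from male mouse kidney, with 12 libraries in 4 groups of 3: cKO IR, WT IR, cKO sham and WT sham. In the cKO mice Krt20, a keratin gene, was deleted only in proximal tubular cells per the study's design text; neither the Cre line, nor the deleted exons, nor further alleles of the WT mice are stated there. IR stands for ischemia and reperfusion, a model of acute kidney injury: mice aged 8 to 12 weeks were anesthetized with pentobarbital, both renal pedicles were clamped for 30 min, and tissue was collected after 24 h of reperfusion. Sham mice had the same operation without clamping. Whether libraries of a group come from different animals is not labelled, and p-values therefore measure library-to-library spread, which may be technical.

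The thick ascending limb and the distal convoluted tubule follow each other along the nephron and reabsorb salt without water. Cells of the thick ascending limb take up sodium, potassium and chloride through the cotransporter encoded by Slc12a1, the target of furosemide, and return potassium to the lumen through the channel encoded by Kcnj1. Cells of the distal convoluted tubule take up sodium and chloride through the cotransporter encoded by Slc12a3, the target of thiazides, and magnesium through the channel encoded by Trpm6. The kinases WNK1 and WNK4 act through the kinases SPAK (Stk39) and OSR1 (Oxsr1), which phosphorylate both cotransporters. These genes were chosen for segments other than the proximal tubule, in which Krt20 was deleted per the study's design text. Many cell types express Wnk1, so its level in bulk kidney RNA may include the targeted cells. Which cells the RNA of the other genes came from was not tested.

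Sequences upstream of 4 of the genes are shown, since Slc12a1 and Pvalb had the largest differences of the 9 between IR and sham and Umod and Slc12a3 are the abundant genes of the same segments with smaller ones. They are the 250 bases before the start of the gene in RefSeq (build GRCm38.p6), 5′ to 3′ on the strand of the gene: Umod at chr7:119479263-119479512 on the minus strand, Slc12a1 at chr2:125152350-125152599 on the plus strand, Slc12a3 at chr8:94328958-94329207 on the plus strand, and Pvalb at chr15:78206401-78206650 on the minus strand, the upstream of its 2 listed starts. They are in lower case throughout, since AAGGTCA, the motif reported here, has no match in them. Other motifs are not reported here.
Umod: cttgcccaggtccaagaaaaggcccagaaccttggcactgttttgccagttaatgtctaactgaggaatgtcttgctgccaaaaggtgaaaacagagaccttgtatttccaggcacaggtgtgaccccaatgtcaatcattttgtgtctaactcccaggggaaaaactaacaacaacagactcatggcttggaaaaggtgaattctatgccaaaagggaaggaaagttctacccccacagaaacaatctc
Slc12a1: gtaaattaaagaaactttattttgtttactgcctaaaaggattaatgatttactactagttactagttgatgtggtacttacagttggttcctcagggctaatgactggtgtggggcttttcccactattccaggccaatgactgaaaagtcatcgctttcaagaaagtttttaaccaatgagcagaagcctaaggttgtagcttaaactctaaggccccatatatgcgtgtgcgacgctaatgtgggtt
Slc12a3: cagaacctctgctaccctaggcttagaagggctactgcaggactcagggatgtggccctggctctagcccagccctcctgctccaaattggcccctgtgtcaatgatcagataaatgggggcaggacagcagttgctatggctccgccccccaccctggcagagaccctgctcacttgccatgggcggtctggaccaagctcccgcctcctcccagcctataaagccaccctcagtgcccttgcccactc
Pvalb: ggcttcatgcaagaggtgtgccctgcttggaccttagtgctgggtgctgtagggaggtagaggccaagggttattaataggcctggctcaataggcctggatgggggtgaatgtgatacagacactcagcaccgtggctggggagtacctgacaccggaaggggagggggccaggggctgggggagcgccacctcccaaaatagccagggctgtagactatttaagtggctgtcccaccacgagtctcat
All 9 genes had such a window in RefSeq, 10 windows in all. The bases that follow the start were found in a GENCODE transcript of the gene for 9 of the 10 starts, and not for that of Trpm6. Both strands were searched for AAGGTCA, the core of the site bound by estrogen-related receptors, whose genes are among the transcription factors counted further on. AAGGTCA occurs in 4.08% of the 32851 windows of the same length in RefSeq, and in 0 of the 10 windows of these genes. The windows differed in base composition: Slc12a1 had 39.6% G and C, Kcnj1 44.8% and Umod 45.2%, against 64% in Wnk1, 70% in Wnk4 and a median of 52.4% over all windows.

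The libraries held 13187531 to 15962303 reads, recovered from the FPKM as whole numbers. Krt20 itself was at 28.2 to 47 FPKM in cKO IR and 59.9 to 84 FPKM in WT IR, and at no more than 4 reads in any sham library. The cKO IR and WT IR ranges did not overlap, but the log2 difference of -0.91 did not pass the threshold (adjusted p = 0.132), and a value per gene does not show the deleted part. The extraction text of the labels speaks of retinas: of 8 retina genes, Crx, Rcvrn and Nrl were at 0 in every library, and the 8 summed to 0.145 to 0.596 FPKM. Genes of brain and glia (4), where Kcnj10 and Pvalb are also expressed, summed to 0.35 to 0.851 FPKM with Snap25 at 0 throughout, and 4 skeletal muscle genes to at most 0.725 FPKM. Several libraries differed from the others of their group. In WT IR 2 the other thick ascending limb genes were higher than in WT IR 1 and 3 (median log2 difference 0.71), as were proximal tubule genes (0.84), while endothelial, stromal, macrophage and neutrophil genes were lower (-1.18, -1.21, -1.0 and -1.19). In cKO sham 3 the other thick ascending limb genes were higher than in cKO sham 1 and 2 (0.33), and the distal convoluted and connecting tubule genes and the proximal tubule genes were lower (-0.23 and -0.38). In cKO IR 3 stromal genes summed to 229 FPKM, against 54.3 and 66.5 FPKM in cKO IR 1 and 2, and endothelial genes to 157 FPKM against 53.3 and 64.8 FPKM. In WT IR 3 neutrophil genes summed to 47.9 FPKM, against 15.8 and 9.98 FPKM in WT IR 1 and 2. In WT sham 3 red blood cell genes summed to 906 FPKM, against 316 and 281 FPKM in WT sham 1 and 2. With any 1 of the 12 libraries left out, 9 of the 9 genes were called in cKO mice and 8 or 9 in WT mice.

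All 9 genes had lower levels after IR in both genotypes, with no overlap between the IR and the sham libraries of a genotype. In cKO mice all 9 fell, and in WT mice 8 fell, while Umod did not pass the test. The fall was unequal: Slc12a1 and Pvalb were at 0.0964 and 0.0278 times their cKO sham means in cKO IR and at 0.195 and 0.0776 times their WT sham means in WT IR, whereas the other 7 genes stayed at 0.319 to 0.625 times in cKO mice and 0.381 to 0.692 times in WT mice. The WT ratios of Slc12a1 and Pvalb rest on library WT IR 2, which was high for both: with the mean of WT IR 1 and 3 alone they were 0.089 and 0.0142, and 0.374 to 0.635 for the other 7 genes. No gene of the 9 differed by the test between cKO and WT, either after IR or after sham operation.

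A gene is called changed here where its Benjamini-Hochberg adjusted p is under 0.05 in limma on log2(FPKM + 1), over the 12868 genes that average 1 FPKM or more. All 9 genes passed that filter. Pvalb passed it through its sham levels and so had to come out lower after IR, also in the counts of genes called. For cKO IR against cKO sham, 50.8% of all tested genes were called, 23.1% as lower and 27.8% as higher, and 27.8% were lower without overlap. For WT IR against WT sham, 42.2% were called, 19.5% as lower and 22.6% as higher, and 24.9% were lower without overlap. The median log2 difference of the 9 genes was -0.95 in cKO and -0.80 in WT mice, beside medians of 0.02 and 0.01 over all tested genes. In bulk kidney RNA, fewer cells of a segment and less RNA of a gene per cell cannot be told apart.

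**Figure D1:**
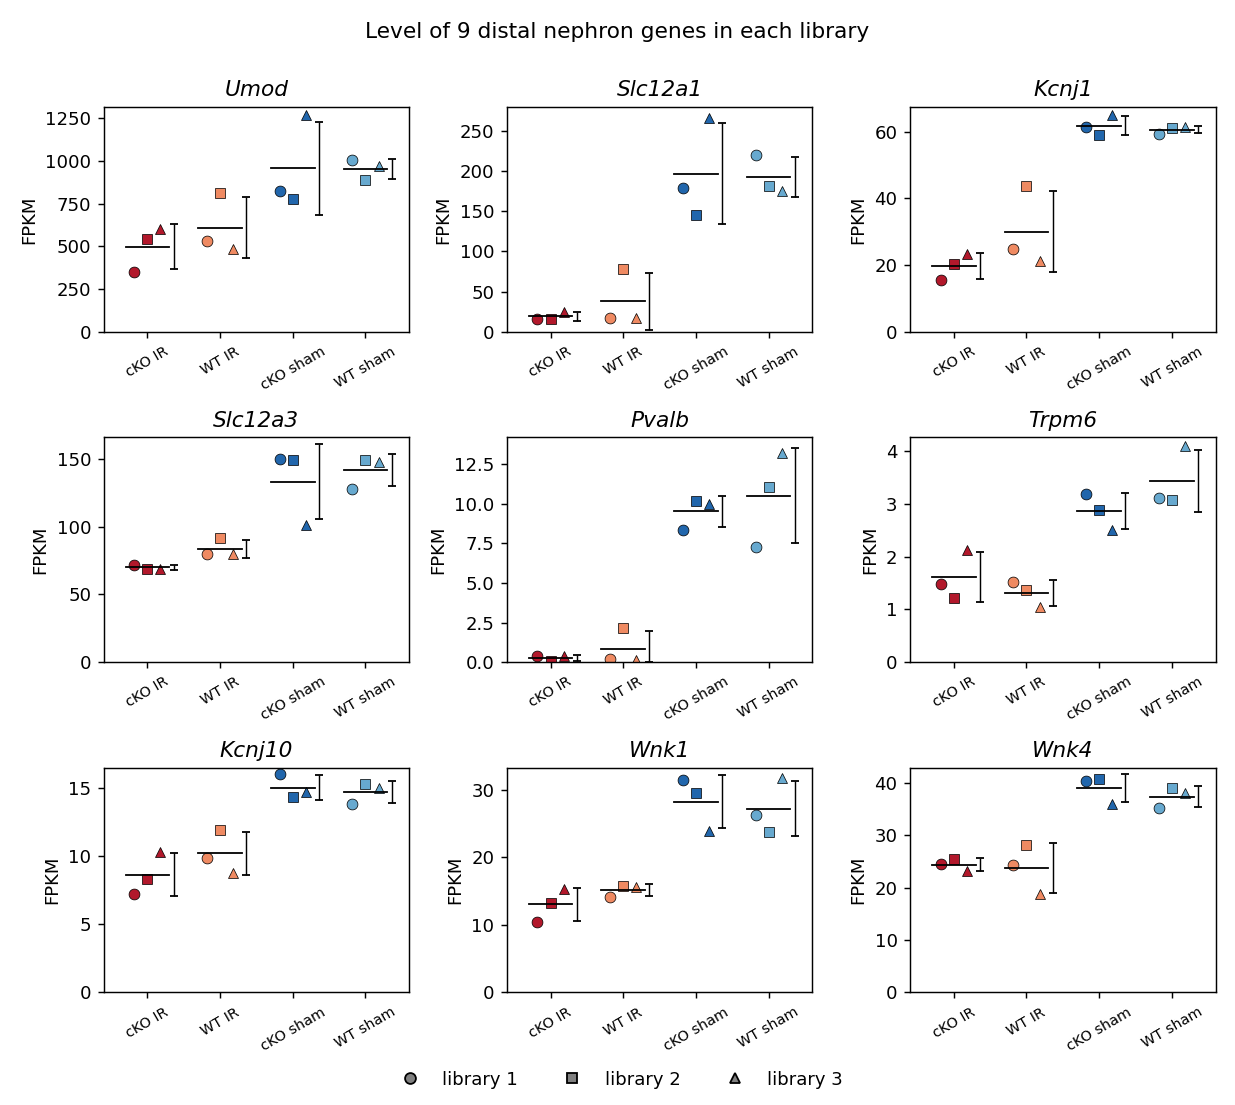
Level in FPKM (linear axes from 0) of each of the 9 genes in the 12 libraries, by group; points are libraries 1 to 3, the line is the group mean and the bar 1 SD. In every panel the IR libraries lie below the sham libraries of the same genotype. WT IR 2 is the highest WT IR library in every panel but that of Trpm6, for example for Umod (814 FPKM), Slc12a1 (78.5 FPKM), Kcnj1 (43.8 FPKM) and Pvalb (2.15 FPKM).

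Umod encodes uromodulin, the protein of the thick ascending limb that is most abundant in normal urine. Its gene model (ENSMUSG00000030963) lies on the minus strand of chromosome 7, from 119061934 to 119078505 in the coordinates of the deposited table, which name no build. Umod had 347, 543 and 599 FPKM in cKO IR, 530.3, 814 and 482 FPKM in WT IR, 822, 776 and 1269.8 FPKM in cKO sham, and 1003, 888 and 970.1 FPKM in WT sham. Every IR library was below every sham library of its genotype, WT IR 2 came close to the lowest WT sham library, and cKO sham 3 was far above the other cKO sham libraries. It remained the most abundant of the 9 in every group, and its mean was the 25th highest of the table in WT sham, the 21st in cKO sham, the 31st in WT IR and the 43rd in cKO IR. The log2 difference was -0.95 (SE 0.26, adjusted p = 0.0116) in cKO mice and -0.68 (SE 0.26, adjusted p = 0.0572) in WT mice. The WT value passed the threshold when WT IR 2 was left out (-0.91, adjusted p = 0.0143), when cKO sham 3 or cKO IR 1 was left out (adjusted p = 0.0424 and 0.0363), and with median-of-ratios scaling (-0.71, adjusted p = 0.0486); over all alternatives its adjusted p ran from 0.0143 to 0.176.

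Slc12a1, the cotransporter of the thick ascending limb, had the largest fall of the 9 on the log2(FPKM + 1) scale in cKO mice and, after Pvalb, the next largest in WT mice. The gene model (ENSMUSG00000027202) spans 124994425 to 125071922 on the plus strand of chromosome 2, in the table's coordinates. Slc12a1 had 15.8, 16.1 and 25 FPKM in cKO IR, 17.1, 78.5 and 17.2 FPKM in WT IR, 179, 145 and 267 FPKM in cKO sham, and 221, 182 and 176 FPKM in WT sham. WT IR 2 was well above the other 5 IR libraries, which lay between 15.8 and 25 FPKM, and well below every sham library. The log2 difference was -3.29 (SE 0.49, adjusted p = 0.000299) in cKO mice and -2.70 (SE 0.49, adjusted p = 0.00159) in WT mice; 37 and 24 of the 12868 tested genes had a lower difference. Without WT IR 2 the WT difference was -3.41 (SE 0.25). A long noncoding RNA on the opposite strand of the gene, Gm14002, did not exceed 0.58 FPKM.

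Kcnj1 encodes ROMK, the channel that recycles potassium to the lumen of the thick ascending limb and secretes it further along the nephron. Its gene model (ENSMUSG00000041248) spans 32283789 to 32310493 on the plus strand of chromosome 9. Kcnj1 had 15.5, 20.2 and 23.4 FPKM in cKO IR, 24.7, 43.8 and 21.3 FPKM in WT IR, 61.3, 59.1 and 64.9 FPKM in cKO sham, and 59.3, 61.1 and 61.4 FPKM in WT sham. The 6 sham libraries were close together, with SDs of 2.91 FPKM in cKO sham and 1.16 FPKM in WT sham, and WT IR 2 again stood above the other IR libraries. The log2 difference was -1.62 (SE 0.22, adjusted p = 0.000191) in cKO mice and -1.06 (SE 0.22, adjusted p = 0.00349) in WT mice.

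Slc12a3, the cotransporter of the distal convoluted tubule, fell less than Slc12a1. The gene model (ENSMUSG00000031766) spans 95055829 to 95092842 on the plus strand of chromosome 8. Slc12a3 had 72, 69 and 68.8 FPKM in cKO IR, 79.7, 91.3 and 80 FPKM in WT IR, 149.9, 149 and 101 FPKM in cKO sham, and 128, 149.6 and 148 FPKM in WT sham. The 6 IR libraries lay between 68.8 and 91.3 FPKM, below the lowest sham library, cKO sham 3. The log2 difference was -0.90 (SE 0.14, adjusted p = 0.000495) in cKO mice and -0.75 (SE 0.14, adjusted p = 0.0021) in WT mice. WT IR 2, which stood high for the thick ascending limb genes, was 23.4% of the way from WT IR 1 and 3 to WT sham for Slc12a3, on the log2(FPKM + 1) scale, against 62.5% for Slc12a1.

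Pvalb encodes parvalbumin, a calcium-binding protein that in the mouse kidney marks the early distal convoluted tubule. Its gene model (ENSMUSG00000005716) spans 78075314 to 78090600 on the minus strand of chromosome 15. Pvalb had 0.361, 0.0621 and 0.373 FPKM in cKO IR, 0.169, 2.15 and 0.129 FPKM in WT IR, 8.38, 10.2 and 10 FPKM in cKO sham, and 7.26, 11.1 and 13.2 FPKM in WT sham. Behind these values were 1 to 6 reads per library in cKO IR, 2 to 33 in WT IR, 132 to 155 in cKO sham and 102 to 182 in WT sham, and 33 of the 38 WT IR reads came from WT IR 2. Summed over a group and scaled by library size, reads were 0.0279 times those of cKO sham in cKO IR (95% interval 0.0148 to 0.0483) and 0.0745 times those of WT sham in WT IR (0.052 to 0.104), by the exact Clopper-Pearson method, which covers counting error only. Pvalb passed the filter through its sham levels and so had to differ, and the limma test adds no support of its own. The log2 difference was -3.06 (SE 0.35, adjusted p = 6.02e-05) in cKO mice and -2.80 (SE 0.35, adjusted p = 0.000205) in WT mice. With 1 added to each FPKM these log2 differences understate the change of so low a gene: on the recovered reads with limma's voom they were -5.22 in cKO and -4.48 in WT mice.

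Trpm6 encodes the channel by which magnesium enters the cells of the distal convoluted tubule; its gene model (ENSMUSG00000024727) spans 18727347 to 18869875 on the plus strand of chromosome 19. Trpm6 had 1.48, 1.21 and 2.13 FPKM in cKO IR, 1.52, 1.36 and 1.05 FPKM in WT IR, 3.19, 2.88 and 2.51 FPKM in cKO sham, and 3.11, 3.07 and 4.11 FPKM in WT sham. The highest IR library, cKO IR 3, was below the lowest sham library, cKO sham 3. The log2 difference was -0.58 (SE 0.15, adjusted p = 0.00738) in cKO mice and -0.94 (SE 0.15, adjusted p = 0.000736) in WT mice, on 120 to 254 reads per IR library and 283 to 421 per sham library. Kcnj10 encodes Kir4.1, a potassium channel of the basolateral membrane, and its gene model (ENSMUSG00000044708) spans 172168777 to 172201652 on the plus strand of chromosome 1. Kcnj10 had 7.21, 8.34 and 10.3 FPKM in cKO IR, 9.88, 11.9 and 8.78 FPKM in WT IR, 16, 14.3 and 14.7 FPKM in cKO sham, and 13.8, 15.3 and 15 FPKM in WT sham. No IR library reached the lowest sham library, and the log2 difference was -0.75 (SE 0.13, adjusted p = 0.000642) in cKO mice and -0.50 (SE 0.13, adjusted p = 0.009), the smallest of the 9, in WT mice.

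Wnk1 and Wnk4 encode the kinases upstream of both cotransporters. Wnk1 (ENSMUSG00000045962; chromosome 6, 119900930 to 120015633, minus strand) had 10.5, 13.3 and 15.3 FPKM in cKO IR, 14.1, 15.7 and 15.6 FPKM in WT IR, 31.4, 29.5 and 23.9 FPKM in cKO sham, and 26.3, 23.7 and 31.7 FPKM in WT sham. Many cell types express Wnk1, whose kidney-specific short form belongs to the distal convoluted tubule; the table has 1 value per gene and does not separate the forms. Its log2 difference was -1.07 (SE 0.15, adjusted p = 0.000194) in cKO mice and -0.80 (SE 0.15, adjusted p = 0.00171) in WT mice. Wnk4 (ENSMUSG00000035112; chromosome 11, 101151393 to 101168235, plus strand) had 24.5, 25.5 and 23.2 FPKM in cKO IR, 24.3, 28.2 and 18.8 FPKM in WT IR, 40.4, 40.7 and 35.9 FPKM in cKO sham, and 35.1, 38.9 and 38.1 FPKM in WT sham. Its log2 difference was -0.65 in both genotypes (SE 0.12 in each; adjusted p = 0.00134 in cKO and 0.00208 in WT mice). Genes on the opposite strand overlap both, Gm16199 at up to 2.917 FPKM in Wnk1 and Gm11615 at up to 3.634 FPKM in Wnk4, and no source used here states whether reads were counted by strand.

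The order of the levels differed between IR and sham. FPKM are scaled to the length of the deposited gene model, so the order of different genes depends on that length. It was 11119 bases for Slc12a3 and 5763 bases for Slc12a1. In recovered reads, Slc12a3 had 19167 to 24029 per WT sham library and Slc12a1 had 13438 to 17171. The orders below are those in FPKM. In WT sham the order was Umod, Slc12a1, Slc12a3, Kcnj1, Wnk4, Wnk1, Kcnj10, Pvalb and Trpm6, with no overlap between the libraries of any neighbours; cKO sham had the same order, with overlap between Slc12a1 and Slc12a3. In cKO IR the order was Umod, Slc12a3, Wnk4, Kcnj1, Slc12a1, Wnk1, Kcnj10, Trpm6 and Pvalb, with overlap between Wnk4 and Kcnj1 and between Kcnj1 and Slc12a1. In WT IR Slc12a1 stood after Slc12a3 and overlapped Kcnj1, which overlapped Wnk4, and Trpm6 stood above Pvalb with overlap. In FPKM, Slc12a1 was thus above Slc12a3 in 5 of the 6 sham libraries and below it in all 6 IR libraries.

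**Figure D2:**
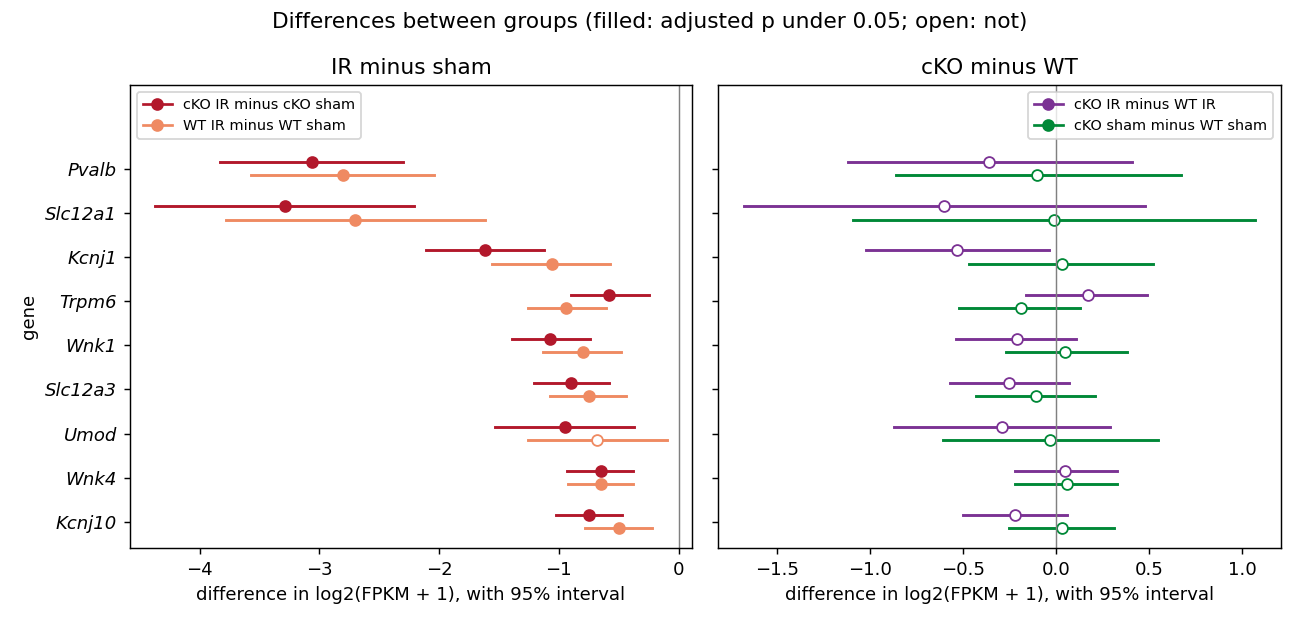
Differences in log2(FPKM + 1) of the 9 genes with 95% intervals from limma, IR minus sham on the left and cKO minus WT on the right; filled points have an adjusted p under 0.05. On the left all points but Umod in WT mice (-0.68) are filled, with Slc12a1 and Pvalb beyond -2.5; on the right none is filled.

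The plain ratio of the FPKM of 2 genes within a library does not depend on how the library was scaled; with 0.1 added to each FPKM it does where a gene is near that value, as Pvalb is after IR. The ratio of Slc12a3 to Slc12a1 in FPKM was 2.75 to 4.56 in cKO IR, 1.16 to 4.66 in WT IR, 0.377 to 1.03 in cKO sham and 0.579 to 0.844 in WT sham. On the log2 scale with 0.1 added to each FPKM, its mean was 1.91 ± 0.40 in cKO IR and -0.54 ± 0.76 in cKO sham, a difference of 2.45, and 1.55 ± 1.15 in WT IR and -0.44 ± 0.30 in WT sham, a difference of 1.98 (SD, n = 3 each). The ratio of Umod to Slc12a1, 2 genes of the same cells, was 22 to 33.7 in cKO IR, 10.4 to 31 in WT IR, 4.59 to 5.35 in cKO sham and 4.54 to 5.52 in WT sham. Its log2 mean differed by 2.41 between cKO IR and cKO sham and by 2.06 between WT IR and WT sham. The ratio of Pvalb to Slc12a3, 2 genes of the distal convoluted tubule, was 0.0009 to 0.00542 in cKO IR, 0.00162 to 0.0235 in WT IR, 0.0559 to 0.0996 in cKO sham and 0.0568 to 0.0888 in WT sham as plain FPKM. With 0.1 added it had log2 means of -7.74 in cKO IR and -7.33 in WT IR, with -3.77 in cKO sham and -3.78 in WT sham. For these 3 ratios the IR and sham libraries did not overlap in either genotype. The ratio of Wnk1 to Wnk4 differed less: its log2 means were -0.91 in cKO IR and -0.63 in WT IR, with -0.47 in cKO sham and -0.47 in WT sham, and WT IR and WT sham overlapped. Where groups did not overlap, the exact permutation test gave a two-sided p of 0.1, the smallest that 3 libraries against 3 allow, and 0.229 after adjustment over the 16 comparisons of ratios, so none of them can pass 0.05.

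**Figure D3:**
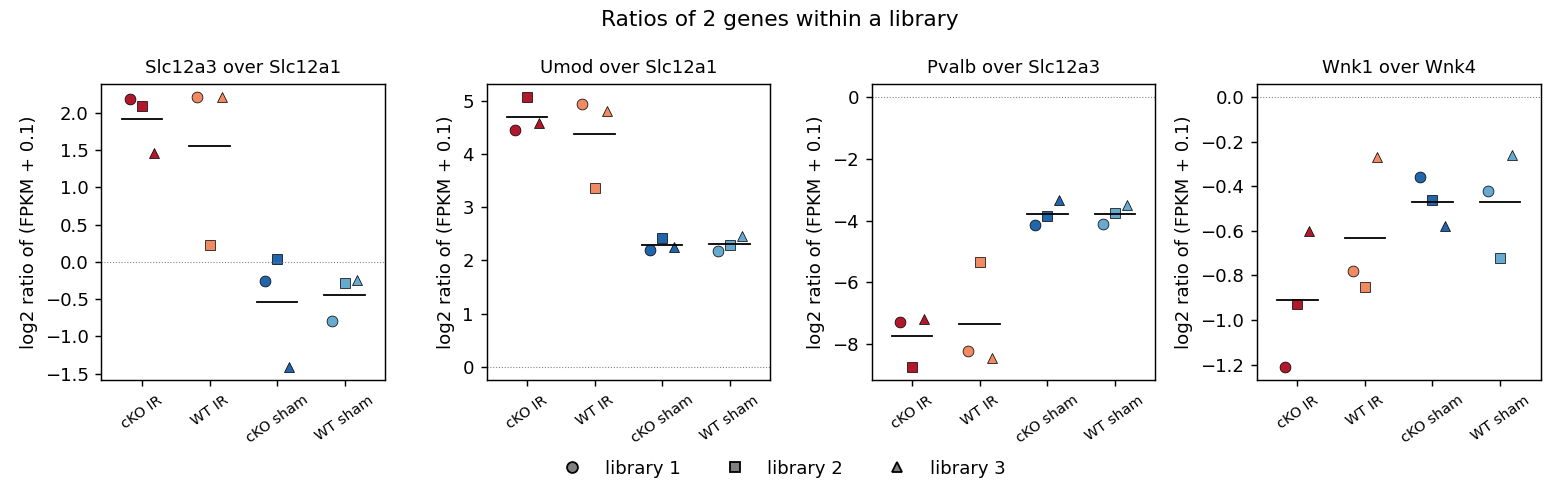
Log2 ratio of (FPKM + 0.1) of 4 pairs of genes in each of the 12 libraries, by group, with the group mean as a line. The dotted line marks equal FPKM. For the first 3 ratios the IR libraries are apart from the sham libraries, with WT IR 2 nearest to sham (0.22 for Slc12a3 over Slc12a1), while for Wnk1 over Wnk4 WT IR and WT sham overlap.

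Between cKO IR and WT IR 7 of the 9 genes were lower and 2 higher in cKO IR, and limma called none of the 9 (smallest adjusted p = 0.3). The threshold was passed by 0% of all tested genes in this comparison, with 1926 of 12868 at an unadjusted p under 0.05 and 1 called by voom. Kcnj1 was the 1 gene of the 9 at an unadjusted p under 0.05: it averaged 19.7 ± 4 FPKM in cKO IR and 29.9 ± 12.1 FPKM in WT IR (SD, n = 3 each), a log2 difference of -0.53 (95% interval -1.02 to -0.04, adjusted p = 0.3) that was -0.23 without WT IR 2. Slc12a3 was the 1 gene of the 9 with no overlap, at 69.9 ± 1.79 FPKM in cKO IR and 83.7 ± 6.63 FPKM in WT IR (SD, n = 3 each), a log2 difference of -0.25 (95% interval -0.57 to 0.07, adjusted p = 0.441); 5.84% of all tested genes were lower without overlap. Slc12a1 averaged 19 ± 5.25 FPKM in cKO IR and 37.6 ± 35.4 FPKM in WT IR (SD, n = 3 each), and its log2 difference of -0.60 (95% interval -1.68 to 0.48) became 0.11 without WT IR 2. Pvalb followed the same course, with a log2 difference of -0.36 (95% interval -1.12 to 0.41) that became 0.13 without that library. The remaining log2 differences were -0.29 for Umod, -0.22 for Kcnj10, -0.21 for Wnk1, 0.05 for Wnk4 and 0.17 for Trpm6, with intervals that include 0; without WT IR 2 they were -0.06 for Umod, -0.11 for Kcnj10, -0.19 for Wnk1, 0.18 for Wnk4 and 0.18 for Trpm6.

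After sham operation the 9 genes had log2 differences between cKO and WT of -0.19 (Trpm6) to 0.06 (Wnk4), and limma called none (smallest adjusted p = 0.736; none at an unadjusted p under 0.05, and none with voom), beside 1.1% of all tested genes called. The widest 95% interval was that of Slc12a1, -1.09 to 1.07, and the narrowest was that of Wnk4, -0.22 to 0.33. Umod averaged 956 ± 273 FPKM in cKO sham and 954 ± 59.2 FPKM in WT sham, and Slc12a1 197 ± 62.7 FPKM in cKO sham and 193 ± 24.3 FPKM in WT sham (SD, n = 3 each). The larger SDs in cKO sham came with cKO sham 3, in which Umod and Slc12a1 were 0.67 and 0.72 higher on the log2 scale than in the other cKO sham libraries and Slc12a3 was 0.57 lower.

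Whether IR moved a gene differently in cKO than in WT mice was tested as an interaction. It ran from -0.59 for Slc12a1 (95% interval -2.12 to 0.93) to 0.36 for Trpm6 (95% interval -0.10 to 0.82), and limma called none of the 9 (smallest adjusted p = 0.457; none at an unadjusted p under 0.05, and none with voom), beside 0.878% of all tested genes called. Trpm6 was the 1 gene of the 9 with a positive interaction when all libraries were used; for Kcnj1 the interaction was -0.55 (95% interval -1.25 to 0.14). Without WT IR 2 the interaction was -0.25 for Kcnj1, 0.12 for Slc12a1, 0.22 for Pvalb, -0.03 for Umod, -0.08 for Slc12a3, -0.14 for Kcnj10, 0.12 for Wnk4, -0.24 for Wnk1 and 0.38 for Trpm6. The intervals are wide enough to hold both no difference and, for Umod, Slc12a1, Kcnj1 and Pvalb, a difference of more than 1 on the log2 scale.

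Most other genes of the thick ascending limb fell too. Of 14 tested genes of this list, 12 fell in cKO IR and 13 in WT IR and none rose, with median log2 differences of -0.94 and -0.88. The shares of all tested genes that fell were 23.1% in cKO IR and 19.5% in WT IR. The largest fall was that of Egf, the precursor of epidermal growth factor, at 2.24 FPKM in cKO IR, 7.59 FPKM in WT IR, 188 FPKM in cKO sham and 169 FPKM in WT sham (log2 differences -5.87 in cKO and -4.92 in WT mice). Casr, the calcium-sensing receptor, averaged 3.65 FPKM in cKO IR, 7.47 FPKM in WT IR, 16.8 FPKM in cKO sham and 16.6 FPKM in WT sham. Tmem207 passed the filter through its sham levels, and so had to differ: it averaged 0.142 FPKM in cKO IR, 0.238 FPKM in WT IR, 3.86 FPKM in cKO sham and 3.67 FPKM in WT sham. Its log2 differences of -2.03 in cKO and -1.92 in WT mice, with 1 added, understate that change. Bsnd, which encodes barttin, a protein needed for salt to leave the cell on the blood side, had log2 differences of -1.77 in cKO and -1.04 in WT mice. Of the claudins of this segment, Cldn10 had -0.87 and -0.93 and Cldn16 -0.78 and -0.77, while Cldn19 had -0.64 and -0.47 and was not called in either. Cldn14 and Nos1 were below the filter. Without WT IR 2 all 14 were called as lower in WT mice.

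Genes of the distal convoluted and connecting tubule were mixed. Of 13 tested genes, 9 fell in cKO IR and 7 in WT IR and 1 rose in each, with median log2 differences of -0.72 and -0.50. Among all tested genes 23.1% fell and 27.8% rose in cKO IR, and 19.5% fell and 22.6% rose in WT IR. Calb1, the calcium-binding protein calbindin, averaged 21.3 FPKM in cKO IR, 15.3 FPKM in WT IR, 64.4 FPKM in cKO sham and 60 FPKM in WT sham (log2 differences -1.69 in cKO and -2.01 in WT mice). Ppp1r1a, a phosphatase inhibitor, had -2.18 and -1.97, and Slc8a1, the sodium-calcium exchanger, -1.15 and -1.36. Trpv5, the apical calcium channel, was the gene that rose: it averaged 11.2 FPKM in cKO IR, 11.7 FPKM in WT IR, 7.4 FPKM in cKO sham and 6.86 FPKM in WT sham, with log2 differences of 0.55 (SE 0.19, adjusted p = 0.0295) in cKO and 0.67 (SE 0.19, adjusted p = 0.0143) in WT mice. Its call was lost in cKO mice without any 1 of the cKO IR libraries or cKO sham 2 or 3, and in WT mice without WT IR 1, WT IR 3 or WT sham 1. The list also holds Hsd11b2 and Nr3c2, the mineralocorticoid receptor, which principal cells of the collecting duct express as well. Sall3 was below the filter.

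Of the partners of the WNK kinases, Klhl3 differed most between IR and sham. Of 10 tested genes, 2 fell and 1 rose in cKO IR and 3 fell and none rose in WT IR, with median log2 differences of -0.02 and -0.14. Over all tested genes 23.1% fell and 27.8% rose in cKO IR, and 19.5% fell and 22.6% rose in WT IR. The falls in this list are near those shares. Klhl3, the adaptor by which WNK kinases are marked for degradation, averaged 1.96 FPKM in cKO IR, 3.25 FPKM in WT IR, 10.7 FPKM in cKO sham and 10.3 FPKM in WT sham (log2 differences -1.98 in cKO and -1.45 in WT mice). Cul3, the ubiquitin ligase scaffold that Klhl3 works with, had -0.11 in cKO mice, not called, and -0.22 in WT mice (adjusted p = 0.0296). Stk39 had log2 differences of 0.06 in cKO and -0.05 in WT mice, and Oxsr1 0.47 (adjusted p = 0.000932) in cKO and 0.20 (adjusted p = 0.0758) in WT mice. Cab39l, an activator of these kinases, had -0.28 and -0.32 and was called in both. Wnk2 and Wnk3 were below the filter, with means of 0.736 and 0.0605 FPKM over the libraries.

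Of 11 tested genes of the basolateral sodium pump and of magnesium handling, 7 fell and 2 rose in cKO IR and 3 fell and 2 rose in WT IR, with median log2 differences of -0.62 and -0.20. Over all tested genes 23.1% fell and 27.8% rose in cKO IR, and 19.5% fell and 22.6% rose in WT IR. Without WT IR 2, 6 rather than 3 were called as lower in WT mice. Fxyd2, a subunit of the sodium pump, had log2 differences of -0.73 in cKO and -0.81 in WT mice, and Pcbd1, a transcriptional cofactor, -1.08 and -0.96. Trpm7, the widely expressed relative of Trpm6, had -0.78 and -0.51. Slc41a1, a magnesium transporter, rose by 0.38 on the log2 scale in both genotypes. Egfr, the receptor of epidermal growth factor, also rose: it averaged 10.2 FPKM in cKO IR, 9.16 FPKM in WT IR, 6.89 FPKM in cKO sham and 5.66 FPKM in WT sham. Kcna1 was below the filter.

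Transcription factors of the distal nephron were called as lower for 8 of 11 tested genes in each genotype, with a median log2 difference of -0.58 in both, and none rose. The share of all tested genes called as lower was 23.1% in cKO and 19.5% in WT mice. Irx1 had log2 differences of -1.76 in cKO and -1.70 in WT mice. Esrrb, an estrogen-related receptor, averaged 1.21 FPKM in cKO IR, 1.27 FPKM in WT IR, 4.7 FPKM in cKO sham and 4.43 FPKM in WT sham (-1.37 and -1.30). Ppargc1a, a coactivator of genes of mitochondria, had -1.18 and -0.66. Irx1, Irx2 and Pou3f3 are also among the thick ascending limb genes and Tfap2b among the distal convoluted tubule genes, so these lists are not separate. Without WT IR 2, 10 of the 11 were called as lower in WT mice, and 5 without WT IR 1 or without WT sham 2.

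**Figure D4:**
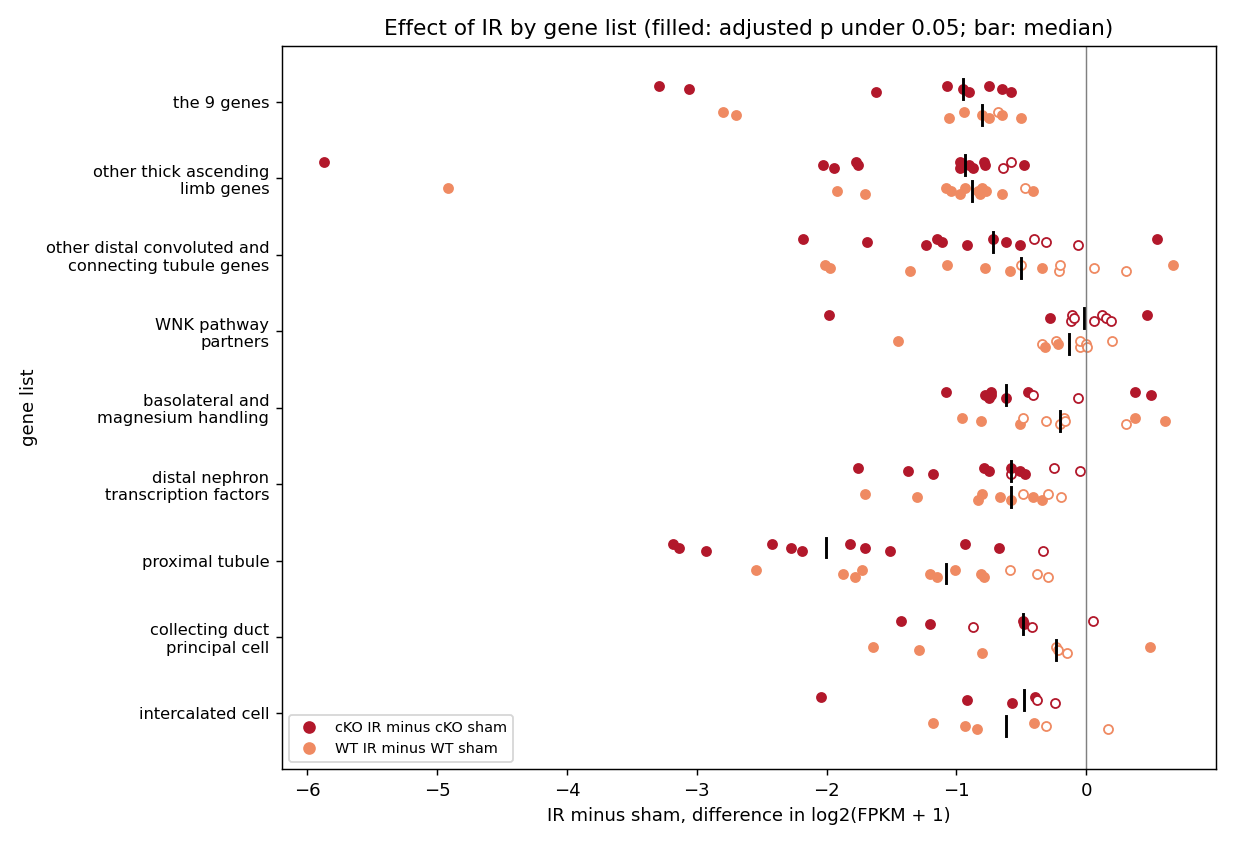
Difference in log2(FPKM + 1) between IR and sham for each tested gene of the 9 and of 8 further lists, with cKO IR minus cKO sham drawn above WT IR minus WT sham; filled points have an adjusted p under 0.05 and the black bar is the list's median. The medians of the 9 genes (-0.95 in cKO and -0.80 in WT mice) lie near those of the other thick ascending limb genes (-0.94 and -0.88), and the WNK partners lie around 0 apart from Klhl3.

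Markers of other cells changed with IR as well, and their part in the results for the 9 genes was not tested. Of 12 proximal tubule genes, 11 fell in cKO IR and 9 in WT IR and none rose (medians -2.01 and -1.08), and their summed level was 760.2 to 1195 FPKM in cKO IR, 1088 to 2479 FPKM in WT IR, 3563 to 4687 FPKM in cKO sham and 3977 to 4684 FPKM in WT sham. Of 7 tested principal cell genes, 4 fell in cKO IR, and 3 fell and 1 (Fxyd4) rose in WT IR; of 6 intercalated cell genes, 4 fell in each. Avpr2, a further principal cell gene, was below the filter, Aqp4 passed it through its sham levels, and Fxyd4 lost its call in 9 of the 12 fits that leave out 1 library. Of 5 podocyte genes 1 (Nphs1) fell in each genotype, and of 6 endothelial genes 2 (Kdr and Ehd3) fell in cKO and 1 (Kdr) in WT mice. These podocyte and endothelial counts are near the shares of all tested genes that fell, 23.1% in cKO and 19.5% in WT mice. Of 5 stromal genes Acta2 rose and Dcn fell in both genotypes and Col1a1 rose in WT mice, and of 5 macrophage genes Cd68 rose and Csf1r fell in both. The falls in these lists are near the shares just given. The shares of all tested genes that rose were 27.8% in cKO and 22.6% in WT mice. The macrophage rises and the stromal rise in cKO mice are near these. All 3 tested neutrophil genes rose in both genotypes; S100a8 and Csf3r passed the filter through their IR levels and so had to differ, and Cxcr2 was below it. S100a8 averaged 5.64 FPKM in cKO IR, 6.9 FPKM in WT IR, 0.493 FPKM in cKO sham and 0.596 FPKM in WT sham, and Csf3r 1.92 FPKM in cKO IR, 2.83 FPKM in WT IR, 0.462 FPKM in cKO sham and 0.367 FPKM in WT sham. The 4 neutrophil genes, Cxcr2 included, had summed levels of 16.2 to 21.9 FPKM in cKO IR, 9.98 to 47.9 FPKM in WT IR, 2.12 to 2.74 FPKM in cKO sham and 1.74 to 2.1 FPKM in WT sham. Of 5 red blood cell genes none was called in cKO mice and 5 fell in WT mice, with sums of 63.9 to 222 FPKM in cKO IR, 47.6 to 229 FPKM in WT IR, 194 to 269.9 FPKM in cKO sham and 281 to 906 FPKM in WT sham. The 906 FPKM came from WT sham 3, and none of the 5 was called in WT mice without it or without WT IR 1. All 4 injury genes rose in both genotypes, of which Havcr1, Lcn2 and Krt20 passed the filter through their IR levels; Havcr1, the tubular injury marker KIM-1, averaged 1101 FPKM in cKO IR, 688 FPKM in WT IR, 0.769 FPKM in cKO sham and 0.397 FPKM in WT sham. Between cKO sham and WT sham 1 gene of these lists was called, Spp1, which encodes osteopontin, at 706 ± 45.7 FPKM in cKO sham and 335 ± 15.2 FPKM in WT sham (SD, n = 3 each; log2 difference 1.07, adjusted p = 0.0217).

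WT IR 2 stood towards WT sham from the mean of the other WT IR libraries to a degree that differed among the 9 genes. On the log2(FPKM + 1) scale it was 75.1% of the way from WT IR 1 and 3 to WT sham for Umod, 66.2% for Kcnj1, 62.5% for Slc12a1, 52.9% for Kcnj10, 49.5% for Wnk4 and 44.2% for Pvalb. It was 23.4% of the way for Slc12a3, 9.21% for Wnk1 and 5.99% for Trpm6. Among the genes that rose with IR it was 12.2% of the way for Lcn2, 7.67% for Havcr1 and 2.08% for Krt20. Each percentage is relative to the gene's own distance, so a small one can be a large shift where that distance is large. The WT difference was 8.91 for Havcr1 and -0.68 for Umod. The 4 injury genes were lower in WT IR 2 than in WT IR 1 and 3 (median log2 difference -0.71). They summed to 6107 FPKM, against 10420.2 and 9961 FPKM. With this library left out, 9 of 9 rather than 8 of 9 genes were called as lower in WT IR.

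**Figure D5:**
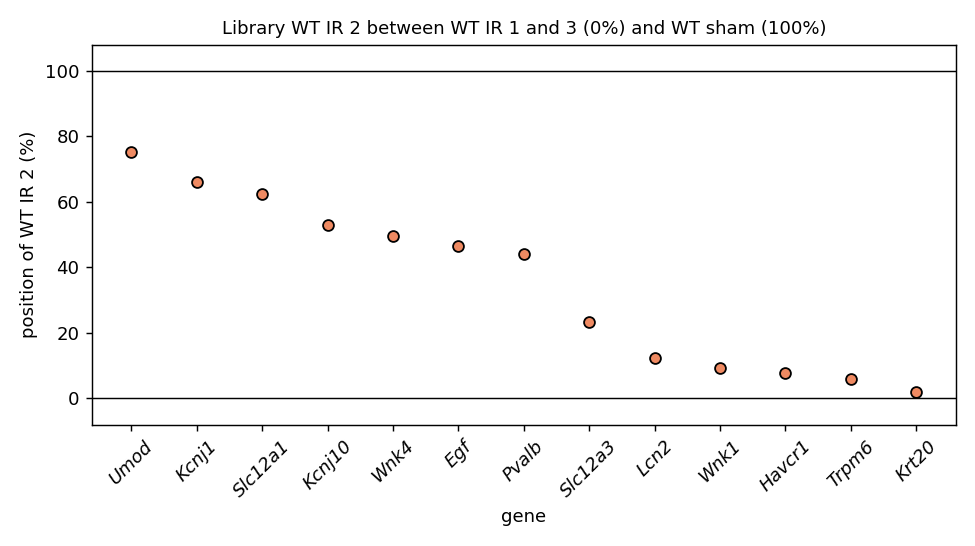
Position of library WT IR 2 on the way from the mean of WT IR 1 and 3 (0%) to the mean of WT sham (100%), on the log2(FPKM + 1) scale, for the 9 genes and for Egf, Lcn2, Havcr1 and Krt20. Umod, Kcnj1 and Slc12a1 lie above 60%, and Wnk1, Havcr1, Trpm6 and Krt20 lie under 10%. Positions are relative to each gene's own distance between these means, so equal percentages are not equal log2 shifts.

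For each of the 9 genes, the tested genes with the most similar profile over the 12 libraries were found by the root mean square difference of centred log2(FPKM + 1) values, as a description. The nearest to Slc12a1 was a gene listed without a symbol (ENSMUSG00000120468, 0.247), followed by Ppp1r1b (0.275), which encodes a phosphatase inhibitor, and C1qtnf3 (0.282). The nearest to Umod were Gal3st1 (0.142), a sulfotransferase gene, Pou3f3 (0.160) and Cspg4b (0.179). The nearest to Kcnj1 were Bsnd (0.108), Slc2a4 (0.115) and Lpin1 (0.144), and the nearest to Pvalb were Dnajc12 (0.293), Slc5a8 (0.305) and Eci3 (0.340). The nearest to Slc12a3 were Slc4a4 (0.098), Tle2 (0.109) and Slit2 (0.127). Trpm6 was closest to Acss3 (0.135), Nadk2 (0.145) and Bcas3 (0.148), and Kcnj10 to AI661453 (0.081) and Usf3 (0.096). Wnk1 was closest to Crebrf (0.108), Enpp1 (0.135) and Peli2 (0.139), and Wnk4 to Slc2a9 (0.070), Rnf123 (0.081) and Rapsn (0.085). Among the 9 themselves the closest pair was Kcnj10 and Wnk4 (0.162), and Slc12a1 and Pvalb, of different segments, were closer to each other (0.376) than either was to any other of the 9. The distances of Pvalb depend on the 1 added to each FPKM. With it, the IR differences of Pvalb were -3.06 in cKO and -2.80 in WT mice, against -5.22 and -4.48 with voom. Its closeness to Slc12a1 is therefore no sign of a shared profile.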

How the data were processed

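RNA of mouse kidney was measured in 12 libraries. The authors deposited 1 table of FPKM for 56748 genes, with gene lengths; per the submitters' processing notes HISAT2 2.2.1 and the builds mm8 and mm9 were used, while no source used here gives the counting program, its strand setting or the annotation. In each library the products of FPKM and length were whole multiples of a constant (to within 1.34e-09), which gave the reads; library totals were 13187531 to 15962303.

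From the deposited FPKM, log2(FPKM + 1) of the 12868 genes that average 1 FPKM or more entered limma 3.58.1 (R 4.3.3) with 1 mean per group, a variance trend (8 residual and 2.59 prior degrees of freedom), two-sided tests and Benjamini-Hochberg adjustment over all tested genes, for 5 comparisons. Ratios within a library used exact permutation tests (Python 3.11.15, scipy 1.17.1). The limma procedure was tested on simulated data. The 9 genes, the 19 lists that include them and the tests were chosen with earlier results of these data known. Named are the 9 genes, Krt20, the most similar genes of each (up to 3) and members of each list, up to 3 of them by smallest p-value and others chosen after their values were seen; some items are not reported here.

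Alternatives were other scalings, voom on the recovered reads, other pseudocounts and filters, a replicate block, and leaving out each library; leaving out libraries for the further lists was added after seeing the data. Depth was similar in all libraries; for a gene of 1 kb, 1 read was 0.05881 to 0.07543 FPKM.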

Additional observations from a re-analysis of the deposited data

How the results depend on the processing

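Each of the 9 genes kept a negative difference between IR and sham in both genotypes under every alternative run. The number of the 9 called was 9 in cKO and 8 or 9 in WT mice, and 0 in the other 3 comparisons. Scaling to summed reads raised the median log2 difference of all genes in WT mice from 0.01 by 0.13 and voom by 0.15, which gave 4168 higher and 1844 lower calls with summed reads against 2910 and 2514; the 9 genes then had log2 differences of -2.73 to -0.36 in WT mice. Umod in WT mice was called in 4 of 21 alternatives. With a replicate block, 9 genes were called in cKO and 8 in WT mice and no call changed. Same-numbered libraries of different groups correlated at -0.186 to 0.4013 (4 of 18 over 0.1), and 4 of 12 libraries were closest to their own number, so the numbers were not taken to pair the libraries.

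Differences that were not called changed sign in places. For cKO sham minus WT sham, Umod gave 0.01 and Slc12a1 0.03 with summed reads and with voom. Leaving out 1 library at a time, that comparison ran from -0.25 to 0.10 for Umod, -0.25 to 0.19 for Slc12a1, -0.21 to 0.08 for Slc12a3, -0.01 to 0.06 for Kcnj1, -0.01 to 0.06 for Kcnj10, -0.32 to 0.07 for Pvalb and -0.04 to 0.16 for Wnk1. For cKO IR minus WT IR it ran from -0.96 to 0.11 for Slc12a1, -0.61 to 0.13 for Pvalb and -0.10 to 0.18 for Wnk4, and for the interaction from -0.95 to 0.12, -0.51 to 0.22 and -0.16 to 0.12 for the same genes. The ratio of Slc12a3 to Slc12a1 ran from -0.39 to 0.33 for cKO sham minus WT sham and from -0.30 to 0.70 for cKO IR minus WT IR, that of Umod to Slc12a1 from -0.09 to 0.05 and from -0.18 to 0.61, and that of Pvalb to Slc12a3 from -0.22 to 0.20 and from -0.96 to 0.59. The cause of these changes was not tested. With 1 of the 12 libraries left out, counts called as lower in the further lists ran from 11 to 13 in cKO and 9 to 14 in WT mice for the thick ascending limb, 9 to 10 and 6 to 7 for the distal convoluted and connecting tubule, 1 to 2 and 2 to 4 for the WNK partners, 6 to 8 and 3 to 6 for the pump and magnesium genes, 7 to 9 and 5 to 10 for transcription factors, and 10 to 11 and 7 to 12 for the proximal tubule. For intercalated cells they ran from 2 (without cKO sham 1) to 5 in cKO mice and 4 to 5 in WT mice, for endothelium 1 to 2 and 0 to 2, and for stroma 1 and 0 to 1. Acta2 and Dcn in WT mice lost their calls in 4 and 3 of these 12 fits, Col1a1 in 5, Kdr in 4, Nphs1 in 3, Slc41a1 in 2 (3 in cKO mice), Cul3 in 4, and, in cKO mice, Csf3r and Ehd3 in 4 each and Cab39l in 2. Depth limits Pvalb after IR, with 1 to 6 reads in 5 of 6 libraries.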
